A study of Nicotiana benthamiana with 6 samples.

Results

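Among the unigenes of *Nicotiana benthamiana* leaves annotated as nudix hydrolase 2-like, c86039_g1_i1 and c101056_g1_i1 were examined together. These 2 were picked from a table of 167935 unigenes (contigs assembled de novo, each standing for a transcript) because their counts differed between the groups in opposite directions, so that difference is described and was not tested. Beside them stand 43 other unigenes whose closest protein in the NR database is from *Nicotiana* or *Solanum* and whose deposited Pfam domain is of the NUDIX kind. In 38 of the 43 the domain was NUDIX, in 4 it was NUDIX_2 and in 1 NUDIX-like. These 43 were chosen by annotation alone. With the 2 chosen unigenes they make a family of 45.

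Wild-type plants aged 5 weeks were infiltrated with *Agrobacterium tumefaciens* LBA4404 at an OD600 of 1.0, carrying either the empty vector pCAMBIA2200 (mock) or pCAMBIA2200::MaWRKY45 (overexpression of the banana WRKY transcription factor gene *MaWRKY45*). Bacteria and vector were thus shared by both groups, and uninfiltrated leaves were not analysed here. Leaves were taken after 3 days, and each of the 3 libraries per group was made from the pooled RNA of 3 plants. The transgene was driven by the CaMV35S promoter, its expression in infiltrated leaves is transient, and the RNA is that of whole leaf tissue.

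Nudix hydrolases cleave nucleoside diphosphates linked to another moiety, and their substrates include ADP-ribose, NADH, dinucleoside polyphosphates, coenzyme A and the mRNA cap. In *Arabidopsis thaliana*, NUDT2 hydrolyses ADP-ribose and NADH, and its overexpression raises tolerance to oxidative stress. Other family members act in isoprenoid synthesis and in the processing of mRNA 3′ ends, so the shared domain does not mean a shared pathway.

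The libraries held between 12031310 and 14285138 counts. Of the 167935 unigenes, 37201 had enough counts to be tested, and 4.59% of those were called, meaning an adjusted p under 0.05 in edgeR's quasi-likelihood test and a fold change of at least 2. Calls were 1.92% of the tested unigenes in the higher direction and 2.67% in the lower direction. A unigene matched to a banana WRKY protein, c147189_g1_i1, had 1617, 781 and 1455 counts in mock and 3133, 4527 and 3615 in overexpression. It was higher in overexpression without overlap, but it was not at 0 in mock, and its UniProt match is a viral transactivator/viroplasmin protein, so it is no clean measure of the transgene. Of 34 unigenes for leaf mesophyll markers (Rubisco small subunit and chlorophyll a-b binding proteins), 28 had at least 10 counts. Scaled to a common library size (CPM), their sum was 7725, 15527 and 4430 in mock and 4500, 3216 and 3073 in overexpression. Mock replicate 2 stood apart with 2.55 times the mean of the other mock libraries. Unigenes matched to yeasts summed to between 688 and 1046 CPM in mock and between 34.1 and 113 in overexpression. Endodermis or root markers (names CASP-like, Casparian strip membrane protein or MYB36) went the other way as a sum. It was between 1213 and 1537 CPM in mock and between 2494 and 2748 in overexpression. The paper reports MYB36 among its most repressed transcription factors, so the sum need not hold for each member. Unigenes matched to *Escherichia coli* were also higher in overexpression, between 27.1 and 40.8 CPM in mock and between 220 and 300 in overexpression. The part of these differences in the results was not tested.

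c86039_g1_i1 was the Nudix unigene with the largest difference in favour of overexpression. It is 1118 bases long, its closest NR protein is from *Nicotiana sylvestris*, its Pfam domain is NUDIX and its UniProt match is *A. thaliana* Nudix hydrolase 2. Its counts were 27, 48 and 35 in mock and 764, 1638 and 1457 in overexpression. After scaling by TMM, edgeR's correction of library size, these were 1.97, 3.57 and 3.14 CPM in mock and 60.5, 119.9 and 107.5 in overexpression. Every overexpression library was above every mock library, and the lowest of the former was 16.9 times the highest of the latter. The fitted difference was 33.1-fold, or 5.05 on the log2 scale (SE 0.33, n = 3 per group). It ranged from 4.82 to 5.29 when each library was left out in turn. The mock libraries differed by up to 1.81-fold among themselves and the overexpression libraries by up to 1.98-fold. In whole-leaf RNA, a change in the share of cells that express a gene and a change in its RNA per cell cannot be told apart.

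c101056_g1_i1 was detected in mock libraries alone. It is a short unigene of 443 bases, its closest NR protein is from *Nicotiana tomentosiformis*, and its UniProt match is also Nudix hydrolase 2, but its Pfam entry in the annotation table is empty. It therefore does not itself meet the domain criterion used for the other 43. Its counts were 211, 12 and 96 in mock and 0 in each of the 3 overexpression libraries. The mock levels were 15.4, 0.894 and 8.62 TMM CPM, highest in replicate 1 and lowest in replicate 2, a 17.2-fold range. Set against a floor of 3 counts over the 3 overexpression libraries (0.0753 TMM CPM), it was at least 111-fold lower in overexpression, a log2 bound of -6.79. This bound depended on the mock library taken, at least 205-fold with replicate 1 alone, 11.9-fold with replicate 2 alone and 114-fold with replicate 3 alone. Floors cover counting error only. Mock replicate 2, where the unigene was lowest, is the library with the highest mesophyll sum, and without it the bound was 164-fold.

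**Figure D1:**
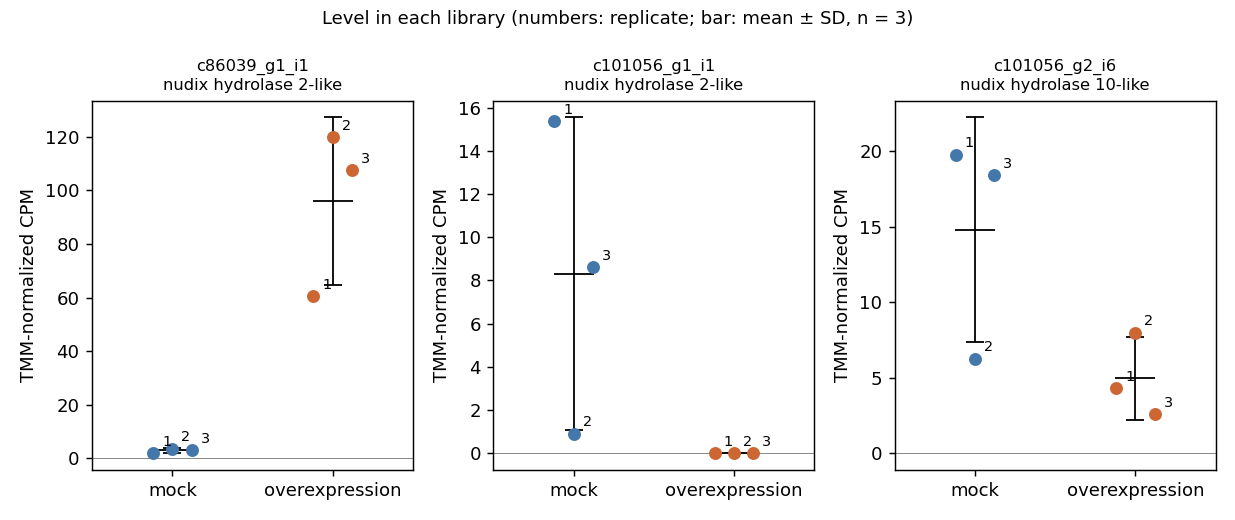
TMM-normalized CPM (vertical axis, a separate scale in each panel) of 3 Nudix unigenes in mock and overexpression libraries. Points are single libraries numbered by replicate, and black bars give the mean ± SD of 3 libraries. c86039_g1_i1 lies between 1.97 and 3.57 in mock and from 60.5 upward in overexpression, c101056_g1_i1 is at 0 in all 3 overexpression libraries, and the groups of c101056_g2_i6 overlap.

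The spread of c101056_g1_i1 within mock was wide for its family. Its coefficient of variation over the 3 mock libraries was 87.4%, against a median of 26.0% and a highest value of 63.2% among the other 35 tested Nudix unigenes. The coefficient of c86039_g1_i1 was 28.6% in mock, near that median, and 32.6% in overexpression.

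Levels of different unigenes were compared as FPKM, fragments scaled by transcript length and by library depth. c86039_g1_i1 had 2.04, 3.65 and 3.17 FPKM in mock and 65.28, 131.9 and 123.03 in overexpression. Its place by FPKM among the 45 was 33, 32 and 33 in mock and 3, 2 and 1 in overexpression. Its share of the family's summed FPKM was 0.468% ± 0.194 (SD, n = 3) in mock and 14.4% ± 4.81 (SD, n = 3) in overexpression. c101056_g1_i1 had 57.85, 3.41 and 32.92 FPKM in mock, place 3, 33 and 6 of the 45, and was listed at 0 in overexpression. In mock replicate 1 and replicate 3 it was thus the more abundant of the pair per length, whereas in mock replicate 2 the pair were at 3.41 and 3.65 FPKM.

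**Figure D2:**
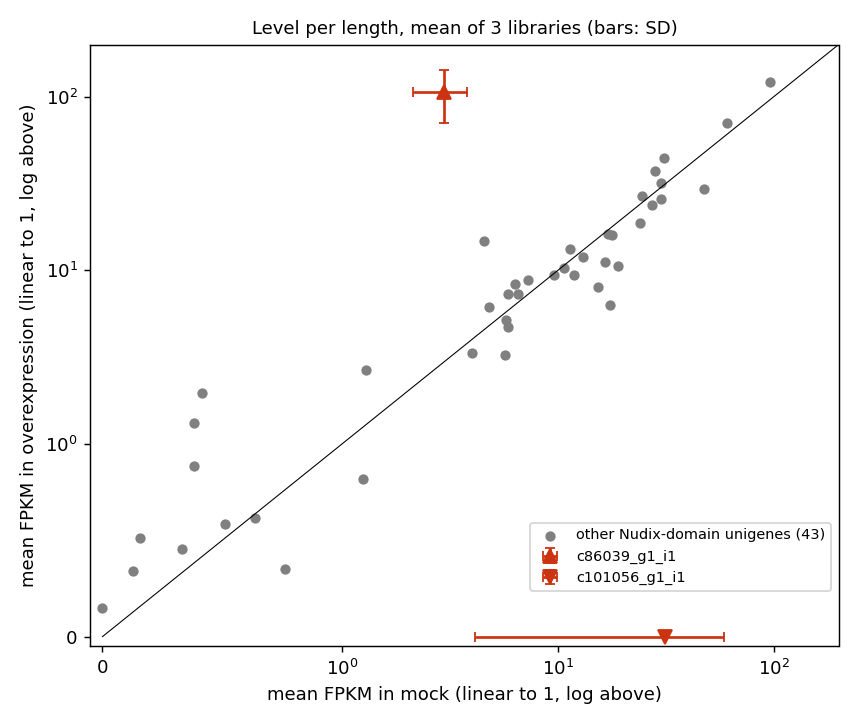
Mean FPKM of each of the 45 unigenes in mock (horizontal) against overexpression (vertical), on axes that are linear up to 1 and logarithmic above. Grey points are the 43 other Nudix-domain unigenes, red triangles the 2 nudix hydrolase 2-like unigenes with SD bars over 3 libraries, and the line marks equal levels. c86039_g1_i1 lies far above the line and c101056_g1_i1 on the floor of the plot at 0.

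Added together, the pair reached 59.89, 7.06 and 36.09 FPKM in mock and 65.28, 131.9 and 123.03 in overexpression. The sums did not overlap, but mock replicate 1 and overexpression replicate 1 lay close, at 59.89 and 65.28 FPKM. The other 43 unigenes summed to 686, 545 and 639 FPKM in mock and to 668, 608 and 624 in overexpression, which overlapped.

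In all, 7 unigenes of the family had *A. thaliana* Nudix hydrolase 2 as their UniProt match. Of the 5 beside the chosen pair, 4 were tested and 0 were called, beside 4.59% of all tested unigenes. None of the 4 was called in DESeq2 or any other alternative fit either, and 0 had an unadjusted p under 0.05, beside 18.9% of all tested unigenes. At these background shares, counts of 0 among 4 set the unigenes apart from no others. The nearest in name, c95879_g3_i1 (nudix hydrolase 2-like isoform X2), had 414, 226 and 227 counts in mock and 241, 253 and 261 in overexpression. These groups overlapped, with a log2 fold change of -0.25 (SE 0.23, adjusted p = 0.639, edgeR). c99891_g7_i1, named nudix hydrolase 10-like, had 8, 15 and 6 counts in mock and 8, 14 and 35 in overexpression. Its log2 fold change of 0.91 rested on overexpression replicate 3, and its groups overlapped (adjusted p = 0.463, edgeR). The remaining name match, c99891_g1_i2, held 2 counts over all libraries and was not tested. The summed FPKM of the 5 was 55.89, 37.49 and 53.64 in mock and 43.51, 44.52 and 43.86 in overexpression, with overlap.

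Unigene names carry the Trinity component they were assembled in, and c101056_g1_i1 shares its component with 13 others. One of them, c101056_g2_i6, is a nudix hydrolase 10-like unigene of 994 bases. It had 271, 84 and 205 counts in mock and 54, 109 and 35 in overexpression. It was lowest in the same mock library as c101056_g1_i1, and mock replicate 2 lay below overexpression replicate 2, so the groups overlapped. Its log2 fold change was -1.58 (SE 0.48, adjusted p = 0.0928, edgeR), which was not called. Without mock replicate 2 it was called, at -1.95 and an adjusted p of 0.00955. The counts of c101056_g1_i1 amounted to 77.9%, 14.3% and 46.8% of those of c101056_g2_i6 in the mock libraries. Reads shared between related contigs are divided by the authors' estimation, so the split of counts between the members of a component is uncertain. Over the other 13 unigenes of the component, 9 were tested and 0 were called, with 1 at an unadjusted p under 0.05, beside 4.59% and 18.9% of all tested unigenes, and their median log2 fold change was -0.11. By DESeq2 c101056_g2_i6 was called (adjusted p = 0.0116). The component of c86039_g1_i1 has 3 unigenes, of which the F-box unigene c86039_g2_i4 had a log2 fold change of 0.27.

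Calls among the other Nudix-domain unigenes numbered 3. Of the 43, 35 were tested, and the 8 left out had at most 70 counts over all libraries. Among the 35, 2 were called higher and 1 lower, which is 8.57% against 4.59% of all tested unigenes. The groups did not overlap for 4 of the 35 in the higher and 6 of the 35 in the lower direction. Over all 37201 tested unigenes these were 4218 (11.3%) and 4294 (11.5%). Unadjusted p-values were under 0.05 for 20% of the list and for 18.9% of all tested unigenes. The median log2 fold change was -0.19, against -0.013 over all tested unigenes, and 30 of the 35 lay within 2-fold, as did 32501 of all 37201 tested unigenes. The called share is 3 unigenes and is read only as a count.

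**Figure D3:**
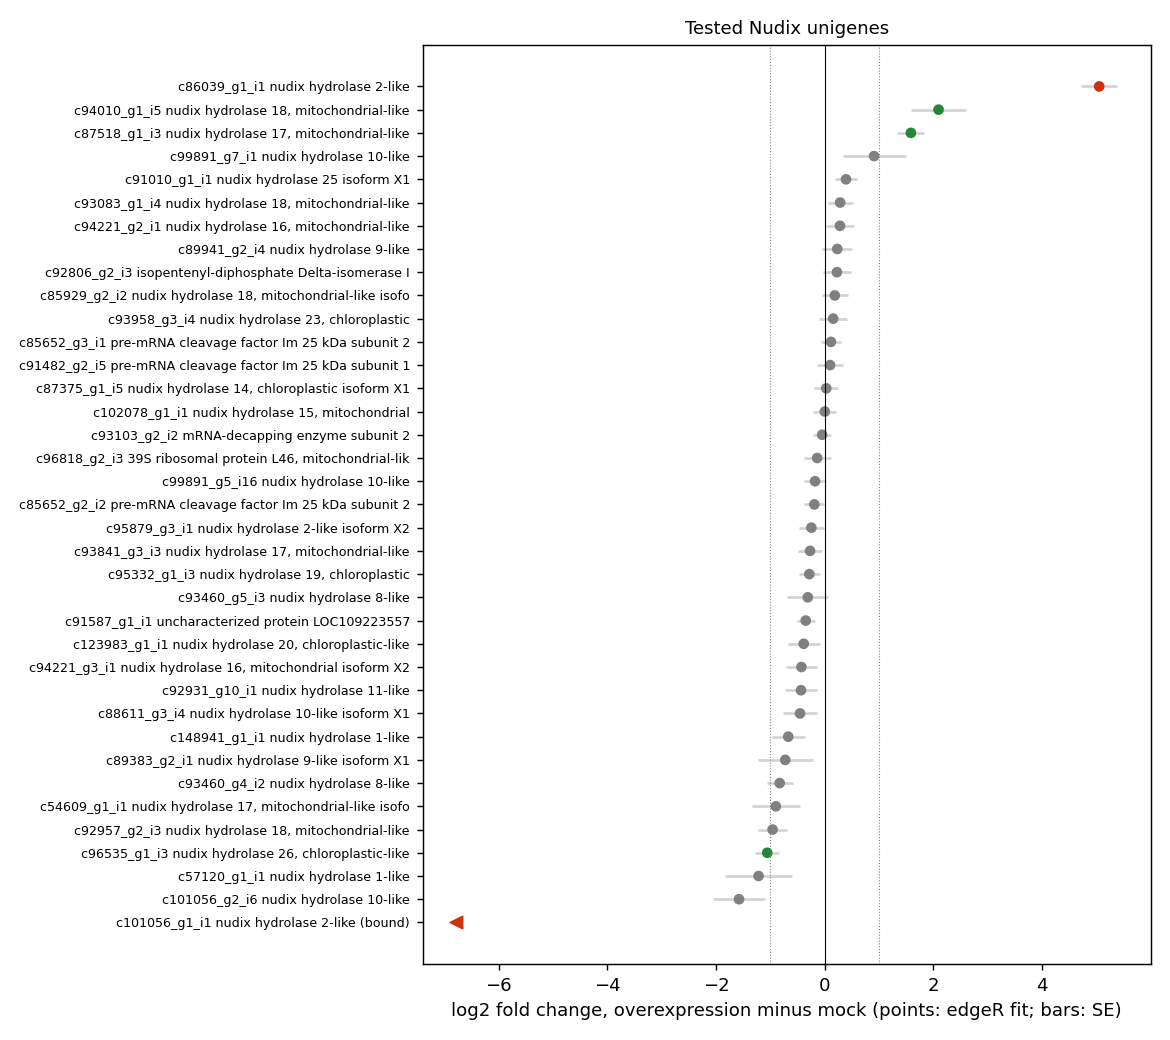
Log2 fold change (overexpression minus mock, horizontal axis) of the 37 tested unigenes of the family, sorted, with SE bars from the edgeR fit over 3 libraries per group. Red marks the 2 chosen unigenes, the arrowhead being the bound of -6.79 for c101056_g1_i1, green the 3 other called unigenes and grey those not called, and dotted lines mark a 2-fold difference. Grey points run from -1.58 to 0.91.

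The 2 called unigenes in the higher direction both carry mitochondrial names. c87518_g1_i3, nudix hydrolase 17, mitochondrial-like, had 73, 47 and 45 counts in mock and 177, 150 and 186 in overexpression. All overexpression libraries were above all mock libraries. It rose by 1.59 on the log2 scale (SE 0.25, adjusted p = 0.00691, edgeR), and it was called under each of the 13 alternative fits.

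c94010_g1_i5, nudix hydrolase 18, mitochondrial-like, was a low unigene, with 4, 11 and 4 counts in mock and 32, 35 and 18 in overexpression. The groups did not overlap, and it rose by 2.09 on the log2 scale (SE 0.51, adjusted p = 0.0425, edgeR). It lost its call with a replicate block (adjusted p = 0.0537), in limma-voom (0.0666) and without mock replicate 1 (0.156), mock replicate 3 (0.124), overexpression replicate 1 (0.132) or overexpression replicate 2 (0.153). Other unigenes of these names did not pass the test. With the called unigenes included, the 3 tested ones named nudix hydrolase 17 spanned -0.90 to 1.59, and the 4 named nudix hydrolase 18 spanned -0.96 to 2.09. The uncalled ones reached no higher than -0.27 for nudix hydrolase 17 and 0.28 for nudix hydrolase 18.

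The called unigene in the lower direction was c96535_g1_i3, nudix hydrolase 26, chloroplastic-like. Enzymes of this kind in *A. thaliana* hydrolyse dinucleoside polyphosphates in plastids. It had 233, 166 and 194 counts in mock and 93, 94 and 111 in overexpression, without overlap. It fell by 1.06 on the log2 scale (SE 0.22, adjusted p = 0.0227, edgeR). The call was lost when libraries were scaled by size alone (-0.93, under 2-fold) and without mock replicate 1 (adjusted p = 0.0894), mock replicate 3 (0.0738), overexpression replicate 1 (0.0940) or overexpression replicate 2 (0.112). The mesophyll sum (3073 to 4500 CPM in overexpression, 4430 to 15527 in mock) was also lower in overexpression apart from the overlap of mock replicate 3 with overexpression replicate 1, and its part in this result was not tested.

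The next largest difference in the lower direction, after c101056_g2_i6, was that of c57120_g1_i1, a nudix hydrolase 1-like unigene matched to tomato. It had 14, 10 and 14 counts in mock and 3, 2 and 12 in overexpression, and the groups overlapped. Its log2 fold change of -1.22 did not pass the test (adjusted p = 0.337, edgeR).

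With the chosen pair left aside, the most abundant Nudix unigenes per length, by mean over the 6 libraries, were not called. Isopentenyl-diphosphate isomerase (c92806_g2_i3), which interconverts the building blocks of isoprenoids, had 96.5 ± 25.2 FPKM in mock and 121.8 ± 27.4 in overexpression (SD, n = 3). The 25 kDa subunit of pre-mRNA cleavage factor Im (c85652_g3_i1), part of the machinery of mRNA 3′ end formation, had 60.6 ± 8.50 and 71.1 ± 6.44 FPKM. Their log2 fold changes were 0.22 and 0.11, both within the spread between libraries.

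Outside the chosen pair, the nudix hydrolase 8-like unigene c93460_g4_i2 came next by FPKM. It had 47.8 ± 5.75 in mock and 29.3 ± 8.82 in overexpression (SD, n = 3). Its groups did not overlap, but its log2 fold change of -0.83 did not pass the test (adjusted p = 0.0761, edgeR). c91010_g1_i1, nudix hydrolase 25, had 31.1 ± 6.72 FPKM in mock and 44.1 ± 3.49 in overexpression (adjusted p = 0.351). c93083_g1_i4, another nudix hydrolase 18, mitochondrial-like unigene, had 28.4 ± 8.22 and 37.6 ± 5.62 FPKM (adjusted p = 0.585). By mean over the 6 libraries, the tested Nudix unigenes other than the pair ranged from 0.558 to 109 FPKM with a median of 11.7.

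Unigenes with names from NAD and ADP-ribose metabolism, which holds substrates of NUDT2-type enzymes, were set beside the family. The list held 48 unigenes, and 26 were tested. By name it covered NAD synthesis, NAD kinases, nicotinamidases, poly(ADP-ribose) polymerases and glycohydrolases. Among those tested were poly [ADP-ribose] polymerases named inactive (RCD1, SRO2 and SRO3) and c91185_g1_i2, whose UniProt match is a 60S ribosomal protein. The list thus does not stand for active enzymes alone. Called were 0 of the 26 in edgeR, against 4.59% of all tested unigenes, and 0 in DESeq2 and each of the other alternative fits. An unadjusted p under 0.05 was reached by 1 (3.85%, beside 18.9% of all tested unigenes), the probable inactive nicotinamidase c80655_g1_i2. The median log2 fold change was 0.10, and all 26 lay within 2-fold, as did 32501 of the 37201 tested unigenes.

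The largest positive value in this list was 0.62 for poly [ADP-ribose] polymerase 3-like c95211_g1_i2, with 31, 23 and 31 counts in mock and 38, 63 and 37 in overexpression (adjusted p = 0.389, edgeR). The largest negative value was -0.34 for glutamine-dependent NAD(+) synthetase c97833_g1_i1, the last step of NAD synthesis. It had 1896, 1788 and 1936 counts in mock and 1485, 1622 and 1549 in overexpression, without overlap once scaled (adjusted p = 0.329, edgeR).

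The EDS1 module, a group of lipase-like proteins and helper receptors of plant immunity, has been linked to Nudix hydrolases in *A. thaliana*. The list labelled EDS1 module here also holds NPR proteins, which are not part of that module, and no unigene named PAD4 or ADR1. Of the 21 unigenes of the list 11 were tested, 0 were called higher and 1 was called lower. The share called was 9.09%, against 4.59% of all tested unigenes in both directions and 2.67% in the lower direction. With 1 call, this share is read only as a count. An unadjusted p under 0.05 was reached by 3 (27.3%, beside 18.9% of all tested unigenes). Groups did not overlap for 3 of the 11, all in the lower direction, beside 11.5% of all tested unigenes in that direction. These too are read only as counts. Among them was the NPR3-like c99158_g1_i5, at -0.92 on the log2 scale (adjusted p = 0.0285, edgeR), which is under 2-fold and not called. The median log2 fold change was -0.24, the value of the NPR5-like c88771_g1_i1, so it does not describe the module itself. The called unigene was c97161_g3_i6, a SAG101-like senescence-associated carboxylesterase, a partner of EDS1. It had 561, 350 and 611 counts in mock and 220, 219 and 242 in overexpression, and the groups did not overlap. It fell by 1.25 on the log2 scale (SE 0.26, adjusted p = 0.0219, edgeR). Without mock replicate 1, mock replicate 3, overexpression replicate 1 or overexpression replicate 2 the adjusted p was 0.0836, 0.0629, 0.0841 and 0.100. Other tested unigenes of the SAG101-like name were not called. c90152_g8_i2 was at -1.58 on the log2 scale (adjusted p = 0.0716, edgeR) and c100100_g1_i6 at 0.09 (adjusted p = 0.863, edgeR). The unigene named EDS1-like protein, c94927_g2_i5, had 1152, 947 and 1521 counts in mock and 966, 1107 and 1022 in overexpression, which overlapped (adjusted p = 0.539, edgeR).

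**Figure D4:**
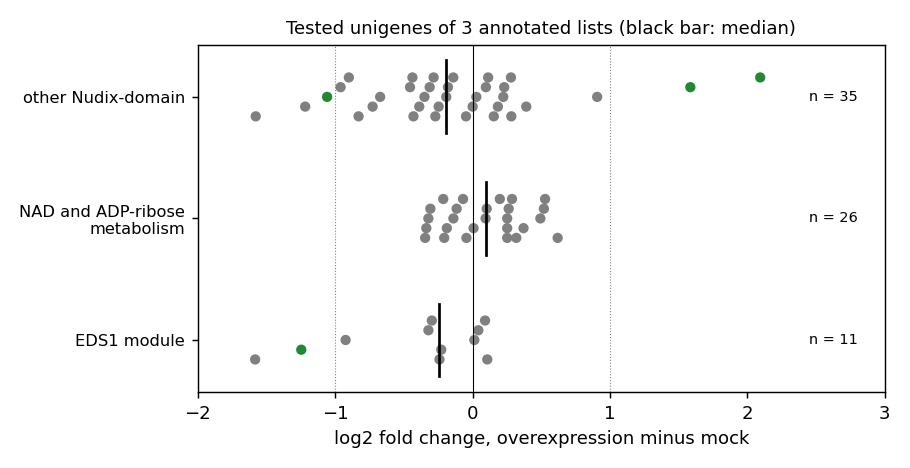
Log2 fold change (overexpression minus mock, horizontal axis) of the tested unigenes of 3 lists, one point each, spread vertically for legibility. These are 35 other Nudix-domain, 26 of NAD and ADP-ribose metabolism and 11 of the list labelled EDS1 module, which includes NPR proteins. Black bars are list medians (-0.19, 0.10 and -0.24), green points are called and dotted lines mark a 2-fold difference. All 26 points of the NAD and ADP-ribose list lie within 2-fold.

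The unigenes whose pattern over the 6 libraries was most like that of each chosen unigene were found by Pearson's r on log2(TMM CPM + 1) among 32955 unigenes. Since both chosen unigenes differ between the groups, any unigene that differs the same way scores high. An r above 0.95 was reached by 318 unigenes for c86039_g1_i1 and by 326 for c101056_g1_i1. The choice by r also favours a shared order of the libraries within a group, so such an order is no separate likeness. The 5 highest for c86039_g1_i1 were the unannotated c138239_g1_i1 (r = 0.9996), the uncharacterized c90447_g1_i1 (0.997), the bHLH55-like transcription factor unigene c76634_g2_i3 (0.996), c88548_g3_i1 (0.995) and the SKI3 unigene c100410_g3_i1 (0.994). Of these c76634_g2_i3 also came nearest in size, with 15, 26 and 29 counts in mock and 239, 505 and 432 in overexpression, lowest in replicate 1 of both groups as c86039_g1_i1 was. The top one, c138239_g1_i1, had few counts, with 5, 7 and 5 in mock and 22, 29 and 28 in overexpression. At 1.24 and 0.65 on the log2 scale, c88548_g3_i1 and c100410_g3_i1 were not called. Within the family the most similar were c87518_g1_i3 (0.929) and c94010_g1_i5 (0.892).

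For c101056_g1_i1 the highest were the unannotated c96797_g1_i1 (r = 0.998), c24535_g1_i1 (0.997), c96234_g9_i1 (0.997) and c78977_g2_i1 (0.997), and c87909_g1_i1 (0.997), the small subunit of a heterodimeric geranylgeranyl pyrophosphate synthase. The latter, of an enzyme that makes a precursor of chlorophylls and carotenoids, had 125, 17 and 83 counts in mock and 6, 6 and 7 in overexpression. Its order over the mock libraries was that of c101056_g1_i1, highest in replicate 1 and lowest in replicate 2. At -1.01 and -1.08 on the log2 scale, c24535_g1_i1 and c96234_g9_i1 were not called. Within the family the most similar were c96535_g1_i3 (0.941) and c94221_g3_i1 (0.916), a nudix hydrolase 16, mitochondrial unigene.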

How the data were processed

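RNA from leaves was sequenced in 6 libraries, 3 mock and 3 *MaWRKY45* overexpression, with a stranded kit. Per their methods, the authors trimmed reads with Trimmomatic, built contigs in Trinity, merged redundant ones in CD-HIT-EST, aligned with Bowtie2 and estimated abundance with RSEM. The deposited counts and the expected counts of the single libraries, both from RSEM, were equal in every unigene. FPKM values were deposited by the authors and used as given. TPM values and contig lengths were also deposited by the authors, and TPM was not used. Reads were not reprocessed, and all value columns belonged to 1 of the 6 libraries.

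After filterByExpr and TMM scaling, the 37201 unigenes kept were tested by edgeR 4.0.16 under R 4.3.3 (glmQLFit with glmQLFTest), and p-values were adjusted over all of them by the Benjamini-Hochberg method. A call was an adjusted p under 0.05 with a fold change of at least 2. TMM factors were between 0.939 and 1.08, and total counts between 12031310 and 14285138. The procedure was checked on simulated counts. P-values measure the spread between pools of 3 plants.

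The members and lists were chosen with earlier results of these data known. Named are the 2 chosen unigenes; other Nudix unigenes that were called, were named nudix hydrolase 2, were among the 5 highest by mean FPKM or among the 3 largest rises and 3 largest falls; called members of the other lists or, with none, their extremes; and the 5 unigenes most like each chosen one (mean of at least 1 TMM CPM). The Trinity components described and the unigenes named beyond this rule were chosen after their values were seen. These unigenes were c86039_g2_i4, c94221_g3_i1, c94927_g2_i5, c88771_g1_i1, c90152_g8_i2, c100100_g1_i6, c147189_g1_i1, c91185_g1_i2, c80655_g1_i2 and c99158_g1_i5. Alternatives were DESeq2 1.42.0, limma-voom (limma 3.58.1), DESeq2's size factors, library size alone, no filter, a minimum of 1 CPM in 3 libraries, a replicate block, and each library left out.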

Additional observations from a re-analysis of the deposited data

How the results depend on the processing

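Calls over all tested unigenes numbered 1706, against 4201 with no filter and 2562 in DESeq2, and from 669 to 2756 with 1 library left out. The low counts were 669 when mock replicate 1 was left out, 762 for overexpression replicate 2 and 871 for overexpression replicate 1, and the high ones those without mock replicate 2 (2594) and overexpression replicate 3 (2756). Scaling by library size alone moved the median of all tested unigenes by 0.12 on the log2 scale and turned 714 higher and 992 lower calls into 932 and 749. The other Nudix-domain unigenes had 1 to 4 calls with 1 library left out, and the count was 1 when mock replicate 1 or overexpression replicate 1 or 2 was the library omitted. Their median of -0.19 was -0.067 with library size alone, -0.051 with no filter and -0.048 in DESeq2, the latter fits covering all 43. EDS1 module calls were 2 with no filter, 2 by adjusted p alone, and 0 to 2 with 1 library left out. The cause of these shifts was not tested. For c101056_g1_i1 the log2 bound ran from -7.36 to -5.87 with 1 library left out. The bound is set from counts and is not defined for the fits by other tools. Widening the 43 other Nudix-domain unigenes to those named nudix without the domain gave 50 unigenes and 3 calls, with the chosen pair left out. This alternative was chosen after seeing the data.

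Same-numbered replicates correlated at -0.11, -0.13 and -0.09 in their deviations from the group means, and other combinations at -0.13 to 0.25. Deviations within a group sum to 0, so these values constrain each other and cannot decide whether the numbers pair the samples. A replicate block gave 1430 calls over all tested unigenes, 2 for the other Nudix-domain unigenes, 0 for NAD and ADP-ribose metabolism, 1 for the EDS1 module, a median of -0.17 and 5.03 for c86039_g1_i1.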
